A study of Mus musculus with 4 samples.

Results

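The data described here are the transcript levels of 40 cell cycle genes in CD11b-positive cells from the mouse brain. The genes were taken by symbol from the 32285 genes of the count matrices, and all 40 were found. They fall into 7 groups by role. There are 10 mitotic kinases, cyclins and checkpoint genes, 2 partners of the anaphase-promoting complex, 9 genes of the spindle and kinetochore and 3 of chromosome structure. There are also 3 G1 cyclins, 8 genes of replication licensing and the replicative helicase, and 5 genes of the replication fork, nucleotide supply and DNA methylation maintenance.

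Single-cell RNA sequencing was done in 4 libraries with 1 mouse each, so the libraries are the replicates and none of the 4 groups has a second mouse. The groups were IL-6 wild-type (+/+) and IL-6 knockout (-/-) mice, 8 to 12 weeks old at surgery, each as a sham control (WT_Ctrl, IL6_KO_Ctrl) or at day 6 after cerebrovascular injury (WT_CVI, IL6_KO_CVI). One label places the controls 6 days after sham surgery, whereas another calls the control tissue uninjured. The injury was made through a thinned skull with pulsed ultrasound at 1 MHz and intravenous microspheres. A mild and a severe form are described, and the form used for these mice is not given. Cells came from a 4 mm punch, and microbeads selected CD11b-positive cells after myelin removal. The comparisons ask what the injury changes and whether mice labelled as lacking IL-6 differ. The knockout deletes a secreted cytokine in the whole animal, and the deleted exon is not named.

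A dividing cell copies its DNA in S phase and separates the copies in mitosis. Cyclins switch cyclin-dependent kinases on in turn: D-type and E-type cyclins before S phase, cyclin A during it and cyclin B at mitosis. The Mcm proteins form the helicase that opens DNA for copying, and the anaphase-promoting complex then tags cyclins and other proteins for destruction so that mitosis can end. Microglia, the resident macrophages of the brain, renew slowly in the healthy adult and are known to proliferate after injury. Part of the cell cycle machinery is also made in cells that do not divide.

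The libraries held 957, 2883, 1363 and 2550 analysed cells in the order WT_Ctrl, WT_CVI, IL6_KO_Ctrl and IL6_KO_CVI, with medians of 7638 to 10016 UMIs (transcript molecules counted) per cell. Il6, the gene targeted in the knockout, was detected in every library, at 10.6 CPM (each UMI count scaled to a library or class total of 1000000) in WT_Ctrl, 4.65 in WT_CVI, 25.3 in IL6_KO_Ctrl and 22.1 in IL6_KO_CVI. It was thus higher in the libraries labelled knockout, which are called knockout-labelled throughout. Reads of a 3′ library outside the deleted part would not check the label. The sham libraries stand apart in another way: they share 135 cell barcodes with each other, whereas the other pairs of libraries share 2 to 14. Analysed sham cells with a shared barcode were deep, with medians of 32072.5 UMIs in WT_Ctrl and 32921.5 in IL6_KO_Ctrl against 7137 and 8026 in the other cells of those libraries. The main shares of dividing microglia and the count of concentrated members are therefore given with and without them. Other values of the sham libraries include these cells.

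Microglia were gated on marker genes that include no cell cycle gene, and numbered 728, 1584, 1147 and 2060 in the same library order. Their 10 microglia markers, among them P2ry12 and Tmem119, summed to 12730, 9385, 14143 and 10899 CPM. The 8 genes of the macrophage list, led by Lyz2, summed to 382, 1622, 344 and 1226 CPM in the same cells, and so were higher after injury. The monocyte list summed to 8.03, 51.8, 7.39 and 30.5 CPM and was higher after injury too, mostly through Fn1, at 1.00, 44.6, 0.901 and 21.3 CPM. The other genes of that list, Ccr2, Plac8, Chil3 and Ly6c2, stood between 0 and 6.66 CPM in every library. The part of these genes in the results on microglia was not tested.

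Cell cycle promoters are known for a few short elements: the CHR element and CCAAT boxes in genes of mitosis, and E2F sites in genes of S phase. RefSeq promoter sequences on GRCm38.p6 were matched for 33 of the 40 members, and the 150 bases before each start site were searched on both strands. Windows of 6 members are shown because they span genes at least 10-fold higher in dividing cells (Birc5, Top2a, Mki67) and genes with smaller ratios (Mcm3, Cks2, Tubb4b). None of these windows overlaps an exon of the GENCODE vM21 annotation. Each is read 5′ to 3′ on the strand of the gene, and capitals mark matches to the CHR letters TTTGAA or TTCGAA, to CCAAT, or to their reverse complements.
Birc5, chr11:117849087-117849236, plus strand: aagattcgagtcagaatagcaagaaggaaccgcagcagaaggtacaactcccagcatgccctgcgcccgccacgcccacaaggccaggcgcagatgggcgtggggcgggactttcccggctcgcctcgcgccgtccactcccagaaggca
Top2a, chr11:99024190-99024339, minus strand: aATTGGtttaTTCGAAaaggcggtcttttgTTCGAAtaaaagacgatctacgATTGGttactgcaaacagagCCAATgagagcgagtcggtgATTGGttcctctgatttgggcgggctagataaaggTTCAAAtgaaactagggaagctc
Mki67, chr7:135716380-135716529, minus strand: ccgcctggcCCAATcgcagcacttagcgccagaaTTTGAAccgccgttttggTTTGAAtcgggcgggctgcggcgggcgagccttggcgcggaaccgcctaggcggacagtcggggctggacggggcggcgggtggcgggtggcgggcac
Mcm3, chr1:20820313-20820462, minus strand: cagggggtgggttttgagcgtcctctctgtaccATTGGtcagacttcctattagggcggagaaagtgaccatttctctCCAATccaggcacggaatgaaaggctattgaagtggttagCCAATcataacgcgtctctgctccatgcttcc
Cks2, chr13:51645082-51645231, plus strand: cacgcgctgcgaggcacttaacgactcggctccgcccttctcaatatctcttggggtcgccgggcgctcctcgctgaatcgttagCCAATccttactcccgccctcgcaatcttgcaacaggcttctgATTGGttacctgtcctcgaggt
Tubb4b, chr2:25224703-25224852, minus strand: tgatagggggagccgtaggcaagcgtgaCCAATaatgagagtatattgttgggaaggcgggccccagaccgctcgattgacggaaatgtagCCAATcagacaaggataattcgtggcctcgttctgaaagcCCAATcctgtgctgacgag

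The CCAAT letters stood in the windows of 27 of 33 members (81.8%), against 24.5% of the 32851 windows of 27025 genes. The CHR letters stood in 8 members (24.2%) against 9.70% of all windows. E2F letters (TTTCCCGC, TTTGGCGC, TTTCGCGC or TTTGCCGC) stood in 4 members (12.1%) against 1.24%. No matches overlapped in a member's window. The window of Top2a held 3 CHR and 4 CCAAT matches and that of Mki67 2 CHR and 1 CCAAT matches, whereas the window of Birc5 held none of the letters searched. Cks2 and Tubb4b held 2 and 3 CCAAT matches and no CHR match. Matching letters are a description of the sequence and not evidence of a bound factor.

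Cells were called dividing when they held UMIs of at least 5 of 61 other mitotic genes, a reference list that contains none of the 40 members. By this call 69 of 1584 microglia were dividing in WT_CVI (4.36%) and 56 of 2060 in IL6_KO_CVI (2.72%), against 21 of 728 in WT_Ctrl (2.88%) and 16 of 1147 in IL6_KO_Ctrl (1.39%). The sham cells so called were very deep, with medians of 46511 and 30681 UMIs in WT_Ctrl and IL6_KO_Ctrl, against 17875 and 18083 in the injured libraries and 7984 to 8552 in microglia not so called. Of the sham dividing microglia, 18 of 21 in WT_Ctrl and 10 of 16 in IL6_KO_Ctrl carried a barcode shared between libraries, against 0 of 69 and 0 of 56 after injury. Without shared barcodes the sham shares were 0.454% and 0.551%.

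At equal depth the injured libraries stood higher, by an amount that depends on the depth chosen. After each microglia was thinned to 3000 UMIs and the call was set at 3 genes, 1 of 600 cells was called in WT_Ctrl (0.167%, exact 95% interval 0.00422 to 0.925%) and 45 of 1470 in WT_CVI (3.06%, 2.24 to 4.07%). In the knockout-labelled pair, 3 of 974 cells were called in IL6_KO_Ctrl (0.308%, 0.0636 to 0.897%) and 31 of 1856 in IL6_KO_CVI (1.67%, 1.14 to 2.36%). At this depth the intervals of injured and sham libraries do not overlap under either label, and those of the injured libraries overlap each other narrowly. Without shared barcodes the shares at this depth were 0.186% in WT_Ctrl and 0.215% in IL6_KO_Ctrl. Thinned to 6000 UMIs with the same call, the shares were 2.32% in WT_Ctrl (1.20 to 4.02%) and 4.77% in WT_CVI (3.604 to 6.179%), and 1.30% in IL6_KO_Ctrl (0.652 to 2.32%) and 2.85% in IL6_KO_CVI (2.08 to 3.80%). The injured libraries were again the higher ones, but the intervals overlap within both pairs, also without shared barcodes (sham shares of 1.97 and 1.12%). Shallower microglia were left out at 3000 UMIs, 128 in WT_Ctrl, 114 in WT_CVI, 173 in IL6_KO_Ctrl and 204 in IL6_KO_CVI, and 211, 452, 302 and 515 at 6000. These intervals describe counting error, and the spread between mice is not in them.

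**Figure D1:**
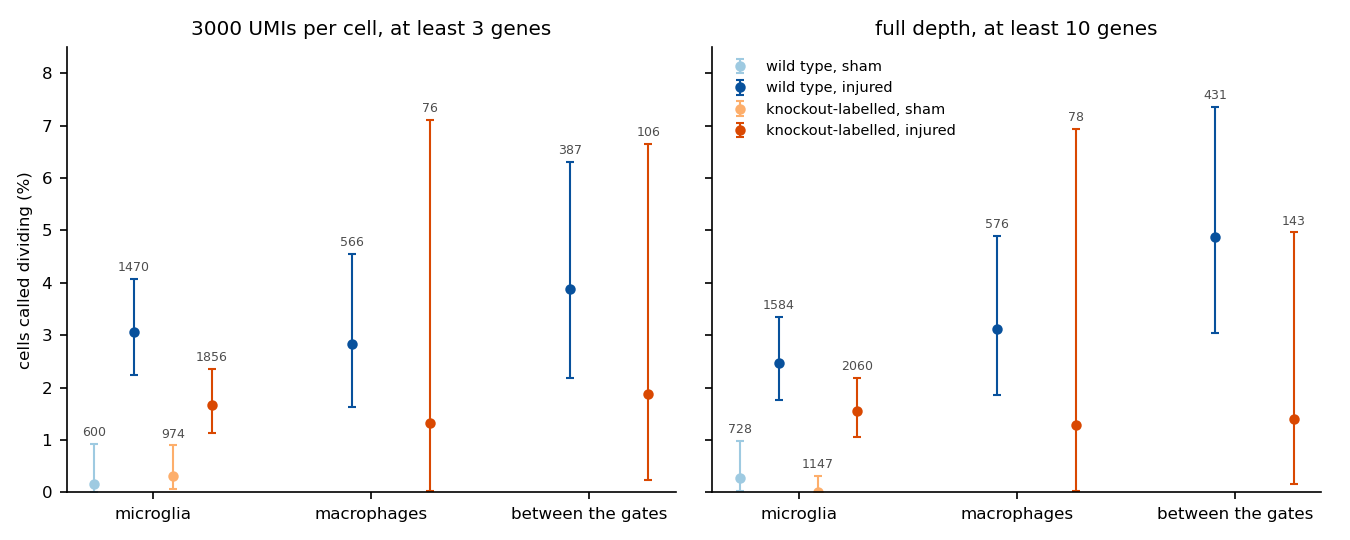
Share of cells called dividing in microglia, macrophages and cells between their marker gates, with exact 95% intervals. One panel shows cells thinned to 3000 UMIs with at least 3 reference genes. The other shows full depth with the strict cut of at least 10 reference genes. Sham macrophages and sham cells between the gates were too few and are not drawn. In thinned microglia the injured libraries stand at 3.06% and 1.67% and the sham libraries at 0.167% and 0.308%.

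The members followed the call, which did not use them. Cells with at least 10 mitotic reference genes held a median of 27 of the 40 members in WT_CVI (86 cells) and 27 in IL6_KO_CVI (36 cells), whereas cells not called dividing held a median of 3 in each library. The cells of this strict class had medians of 19991.5 and 18204.5 UMIs, against 9708.5 and 8368 in cells not called dividing. Of the 24 members of G2 and mitosis these cells held medians of 20 and 18.5, and of the 16 members of G1 and S phase medians of 7 and 9. At the cut itself, 14 of 24 dividing cells of WT_Ctrl and 14 of 18 of IL6_KO_Ctrl held only 5 or 6 reference genes, against 50 of 163 in WT_CVI and 16 of 63 in IL6_KO_CVI.

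Members were sorted by their CPM in dividing cells over that in all other cells of the same library. A member counts as concentrated at a ratio of at least 10 in every library with 20 dividing cells (WT_Ctrl, WT_CVI and IL6_KO_CVI), and as broad below 3 in each. There were 15 concentrated members, and 24 of 13735 genes (0.175%) met the same rule: the cyclins Ccnb1, Ccnb2 and Ccna2, the kinases Aurka, Aurkb, Bub1 and Bub1b, the ubiquitin-conjugating enzyme Ube2c, the spindle and kinetochore genes Tpx2, Nusap1, Cenpe and Birc5, the chromosome genes Mki67 and Top2a, and the ribonucleotide reductase subunit Rrm2. Only Ccnd1 and Pcna were broad, as were 95% of all genes. In the injured libraries alone, and likewise without shared barcodes, 26 members were concentrated (background 0.612%) and the same 2 were broad (95.7%). The 11 added there were Cdk1, Plk1, Cdc20, Kif11, Kif23, Cenpa, Cenpf, Ccne1, Ccne2, Tyms and Uhrf1. The count thus rests on WT_Ctrl, whose dividing cells mostly carry shared barcodes. Within microglia alone only 1 member was concentrated over the 3 libraries, and 28 were in microglia of the injured libraries.

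**Figure D2:**
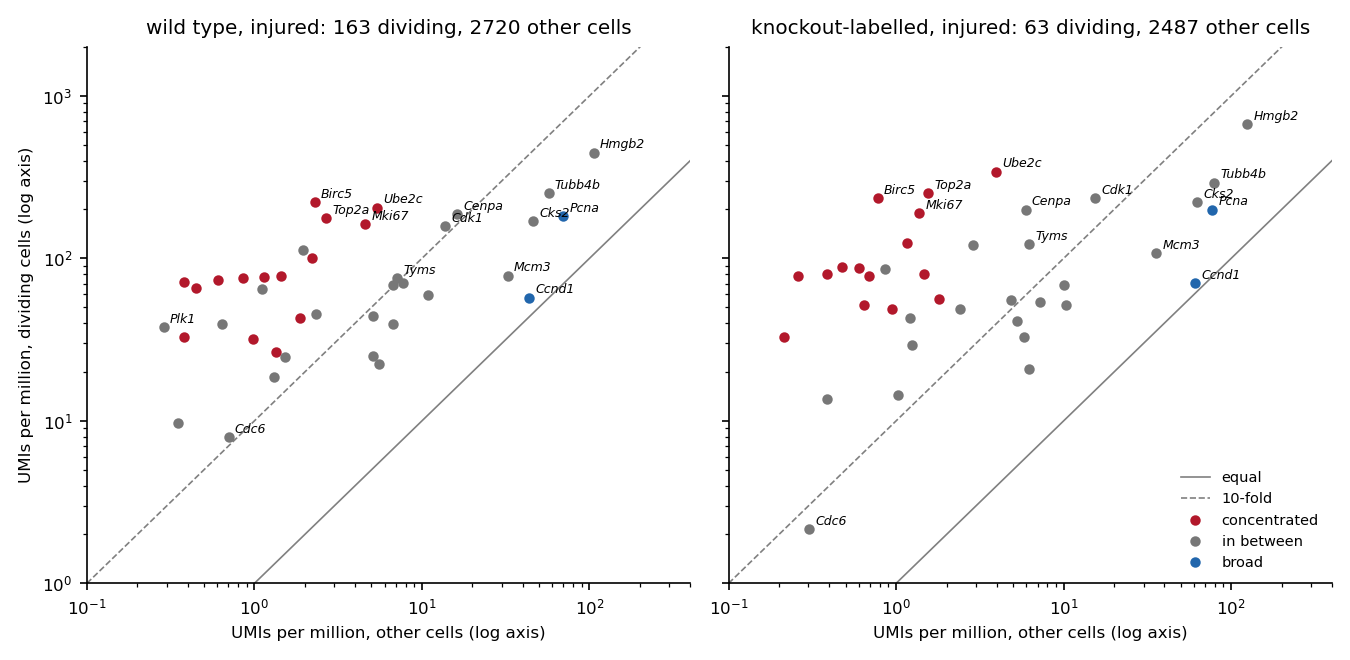
CPM of each member in dividing cells (vertical, log axis) against other cells (horizontal, log axis) of the injured libraries, with lines at equal levels and at a 10-fold ratio. Birc5, Top2a and Mki67 lie far above the 10-fold line, Hmgb2 and Cks2 between the lines, and Ccnd1 close to the line of equal levels.

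Among the mitotic kinases and their partners, Cdk1, the kinase that starts mitosis, held 615 of its UMIs in the dividing cells of WT_CVI and 433 in the others, a ratio of 11.4 (10.1 to 13.0) in CPM. In IL6_KO_CVI its ratio was 15.3 (13.1 to 17.8). Plk1, a kinase of spindle assembly, was nearly confined to dividing cells in the injured libraries: 148 UMIs against 9 in WT_CVI (ratio 132, 67.8 to 295) and 69 against 1 in IL6_KO_CVI. Ccna2, which encodes cyclin A2, had ratios of 147 and 208 in WT_CVI and IL6_KO_CVI, and Ccnb1, which encodes cyclin B1, 122 and 145. Cks2, a small partner of cyclin-dependent kinases, had a ratio of only 3.67 (3.35 to 4.03) in WT_CVI and 3.58 (3.15 to 4.05) in IL6_KO_CVI. Most Cks2 transcripts therefore lay in cells not called dividing, which held 1445 of its UMIs against 660 in dividing cells of WT_CVI.

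Of the partners of the anaphase-promoting complex, Ube2c, its ubiquitin-conjugating enzyme, had ratios of 38.2 (32.3 to 45.3) in WT_CVI and 86.3 (68.9 to 109) in IL6_KO_CVI. Cdc20, its activator, had ratios of 58.2 and 99.3. In the spindle group Birc5, the survivin subunit of the chromosomal passenger complex, had ratios of 97.3 (76.5 to 126) and 304 (189 to 519). Nusap1, which binds spindle microtubules, had 188 (106 to 369) and 187 (101 to 383). Tubb4b, a beta-tubulin, stood apart from the others of its group at 4.42 and 3.72. Tubulin genes are close copies of each other, and how reads were shared between them was not tested.

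Mki67 (chr7:135689784-135716361 on GRCm38, minus strand) encodes the Ki-67 protein that coats mitotic chromosomes. It held 637 UMIs in dividing cells and 144 in the others of WT_CVI, a ratio of 35.6 (29.7 to 42.9). In IL6_KO_CVI it held 265 and 32 UMIs, a ratio of 138 (95.5 to 206). Top2a, the topoisomerase that untangles sister chromosomes, had ratios of 66.0 (52.5 to 83.8) and 164 (116 to 237). Hmgb2, a DNA-bending chromatin protein, had ratios of 4.23 (3.99 to 4.49) and 5.37 (4.99 to 5.79). In WT_Ctrl, where most dividing cells carried shared barcodes, the ratio of Hmgb2 was 1.55.

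The members of G1 and S phase were spread more widely. The dividing call used mitotic genes alone, so cells in S phase could fall among the others. Among cells with at least 8 genes of an S phase list, 142 were not called dividing in WT_CVI and 104 were. In IL6_KO_CVI the numbers were 57 and 36. A low ratio therefore does not show that a member was made in cells outside the cycle. Ccnd1 (chr7:144929931-144939925, minus strand) encodes cyclin D1, which carries growth signals into G1. It had ratios of 1.31 (1.14 to 1.52) in WT_CVI and 1.16 (0.932 to 1.42) in IL6_KO_CVI, so the level in dividing cells of IL6_KO_CVI is within counting error of that in the others. Pcna, the sliding clamp of the replication fork, had ratios of 2.60 and 2.58 in the injured libraries and 1.06 in WT_Ctrl. The helicase subunits Mcm2 to Mcm7 ranged from 2.41 for Mcm3 to 10.2 for Mcm7 in WT_CVI, and from 3.01 for Mcm3 to 11.4 for Mcm5 in IL6_KO_CVI. Tyms, the thymidylate synthase, had ratios of 10.7 and 19.8 in WT_CVI and IL6_KO_CVI, and Uhrf1, which maintains DNA methylation at the fork, 16.3 and 23.6. Rrm2 had ratios of 88.2 and 114, far above the other subunit of the same enzyme, Rrm1, with 9.21 and 6.90. Cdc6, a licensing factor, had too few transcripts for a firm ratio in IL6_KO_CVI, with 3 UMIs in dividing cells against 7 (ratio 7.15, 1.19 to 31.3).

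Summed over all microglia of a library, most members of mitosis were scarce in both sham libraries and present after injury. Cks2, Hmgb2 and Tubb4b were present in every library. A sum of this kind cannot tell more dividing cells from more RNA per dividing cell. Of the 40 members, 12 reached 20 CPM in a library of the wild-type pair and 50 UMIs over the 4 libraries, and 8 did so in the knockout-labelled pair. Cdk1 stood at 3.01 CPM in WT_Ctrl, 34.3 in WT_CVI, 2.25 in IL6_KO_Ctrl and 30.9 in IL6_KO_CVI. Ube2c stood at 1.25, 30.1, 0.541 and 24.7 CPM in the same order. Top2a stood at 1.51, 24.4, 1.35 and 17.2 CPM. For each of these genes both injured libraries lay above both sham libraries, with Poisson intervals that do not overlap in the plot of members by library.

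Birc5 and Mki67 were almost absent from sham microglia. Birc5 stood at 1.00 CPM (8 UMIs) in WT_Ctrl, 25.4 CPM in WT_CVI and 15.5 CPM in IL6_KO_CVI, and held 2 UMIs in IL6_KO_Ctrl. Mki67 held 3 UMIs in WT_Ctrl (0.376 CPM), 311 in WT_CVI (20.6 CPM), 0 in IL6_KO_Ctrl, where 3 counts would be 0.270 CPM, and 256 in IL6_KO_CVI (12.7 CPM). Cenpa, the histone variant that marks the centromere, stood at 3.26, 26.1, 2.07 and 17.0 CPM. Cks2 was present in every library, at 47.4, 84.9, 50.5 and 80.8 CPM, and Mcm3 at 31.5, 42.6, 37.2 and 42.4 CPM. The injured libraries were the higher ones for each of these members.

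The remaining members of the 12 were not higher in CPM after injury. Ccnd1 stood at 150.0 CPM in WT_Ctrl, 50.4 in WT_CVI, 139.8 in IL6_KO_Ctrl and 60.8 in IL6_KO_CVI, with both injured libraries below both sham libraries. Tubb4b stood at 131.5, 83.3, 107.1 and 70.3 CPM, again lower in both injured libraries. Hmgb2 stood at 205.9, 180.0, 186.8 and 158.5 CPM, and Pcna at 107.4, 81.6, 105.6 and 85.4 CPM. For Hmgb2 and Pcna the direction depends on the scaling: their log2 ratios of injured to sham moved from -0.18 and -0.36 to 0.27 and 0.07 in the wild-type pair, and from -0.22 and -0.28 to 0.12 and 0.05 in the knockout-labelled pair, under median-of-ratios scaling.

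**Figure D3:**
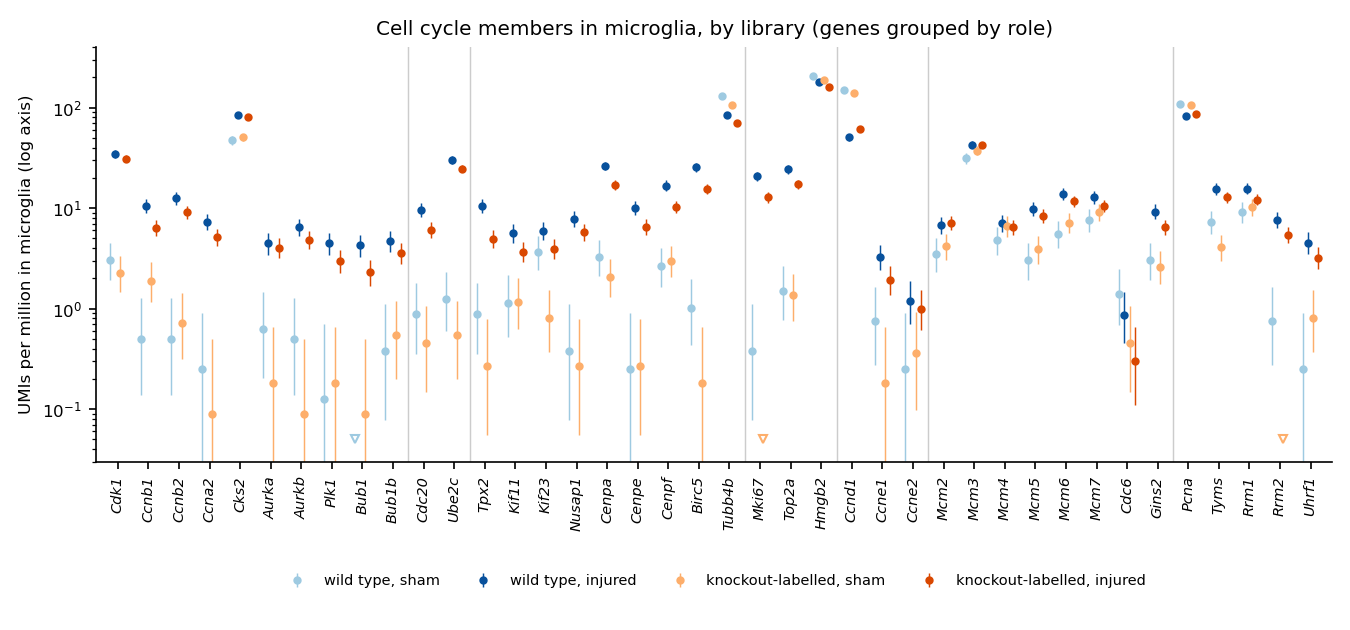
CPM (log axis) of the 40 members in microglia, by library and grouped by role, with exact 95% Poisson intervals. Most mitotic members of the injured libraries stand above those of the sham libraries (Top2a 24.4 and 17.2 against 1.51 and 1.35 CPM), but Hmgb2 and Tubb4b do not. Ccnd1 is lower after injury (50.4 and 60.8 against 150.0 and 139.8 CPM).

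As ratios of injured to sham, Cdk1 was 11.4-fold higher in the wild-type pair (exact 95% interval 7.57 to 18.0) and 13.7-fold higher in the knockout-labelled pair (9.20 to 21.3). Ube2c was 24.0-fold (12.9 to 50.4) and 45.7-fold (20.9 to 125) higher, Cenpa 8.02-fold (5.39 to 12.4) and 8.21-fold (5.38 to 13.1) higher, and Top2a 16.2-fold (9.15 to 31.6) and 12.7-fold (7.59 to 22.9) higher. Birc5 was 25.3-fold higher in the wild-type pair (12.7 to 59.1) and 85.8-fold higher from only 2 sham UMIs in the knockout-labelled pair (23.6 to 712). Mki67 was 54.8-fold higher from 3 sham UMIs in the wild-type pair (18.6 to 267), and at least 47.1-fold higher in the knockout-labelled pair, against a floor of 3 counts in its sham library, so that its bound is not on the same footing as the ratio of Birc5. Rrm2, with 0 UMIs in IL6_KO_Ctrl, was at least 20.1-fold higher there on the same floor.

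The changes of Cks2, Mcm3, Ccnd1 and Tubb4b were small beside these. Cks2 was 1.79-fold higher in the wild-type pair and 1.60-fold higher in the knockout-labelled pair, and Mcm3 1.35-fold and 1.14-fold higher. Ccnd1 was 2.98-fold lower (2.72 to 3.27) in the wild-type pair and 2.30-fold lower (2.13 to 2.48) in the knockout-labelled pair. Tubb4b was 1.58-fold and 1.52-fold lower. Under median-of-ratios scaling its log2 ratio moved from -0.60 to -0.16 in the wild-type pair and from -0.54 to -0.22 in the knockout-labelled pair. That of Cks2 moved from 0.72 to 1.14, past 2-fold, in the wild-type pair and from 0.59 to 0.90 in the knockout-labelled pair.

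For calls past 2-fold a log2 ratio with a prior of 10 CPM on both sides was used. In the wild-type pair Cdk1, Ube2c, Cenpa, Birc5, Mki67 and Top2a were past it upwards (3.11% of 6204 genes were) and Ccnd1 downwards (5.51% were). In the knockout-labelled pair Cdk1 and Ube2c were past it upwards among the 8 that passed the filter (2.43% of 6142 genes) and Ccnd1 downwards (1.32%). Members that passed the filter through an injured library alone had to be higher there, so these counts are an account of the members and no test. The median log2 ratio of all genes was -0.28 in the wild-type pair and -0.21 in the knockout-labelled pair, and 0.15 and 0.11 under median-of-ratios scaling. With that scaling Ccnd1 stood at -0.98 and -0.76, short of 2-fold, and the genes past 2-fold split 469 higher to 62 lower in place of 193 to 342 in the wild-type pair, and 273 to 29 in place of 149 to 81 in the knockout-labelled pair.

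Across labels, 2 injured mice were tested against 2 sham mice on UMIs summed over microglia, with the label as a term (edgeR quasi-likelihood test, Benjamini-Hochberg adjusted over 12702 genes). Of the 40 members 35 rose, against a background of 24.6% of genes called higher, and 1 fell, against 22.1% called lower. Members nearly absent from sham microglia, such as Mki67 and Birc5, passed the count filter through the injured libraries. They could hardly be called lower, so these counts are an account of the members and no test. The median log2 fold change was 2.98 over the members and -0.02 over all genes. The design text gives the libraries as separate mice, and with 1 residual degree of freedom the spread was pooled wholly over genes, which makes the p-values very small for 2 mice a side. The highest adjusted p over 12 other settings is therefore printed with the lead members. Fitted fold changes of members near 0 in the sham libraries depend on the prior count of the fit.

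All 10 mitotic kinases, cyclins and checkpoint genes rose, by a median log2 fold change of 4.23. Cdk1 rose by 4.03 (SE 0.21, edgeR adjusted p = 2.72e-80, highest over settings 0.000877) and Cks2 by 1.14 (SE 0.14, adjusted p = 6.14e-14, highest 0.00291). Bub1, a kinase of the spindle checkpoint, rose by 6.01 from 0 and 1 UMIs in the sham libraries. Both partners of the anaphase-promoting complex rose, Ube2c by 5.37 (SE 0.26) and Cdc20 by 3.95 (SE 0.35). In the spindle and kinetochore group 8 of 9 rose, from 1.70 for Kif23, a kinesin of cytokinesis, to 5.60 for Birc5. The call of Kif23 was lost without IL6_KO_Ctrl (adjusted p = 0.145). Tubb4b, at -0.25 (SE 0.14, adjusted p = 0.146), did not pass the test and passed it downwards at -0.41 (adjusted p = 0.0234) when microglia were taken by clusters.

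In the chromosome group Mki67 rose by 6.97 (SE 0.38, highest adjusted p over settings 0.00394) and Top2a by 4.21 (SE 0.24, highest 0.00291), while Hmgb2 stood at 0.17 (SE 0.14, adjusted p = 0.323). Among the G1 cyclins Ccnd1 fell by 1.00 (SE 0.14, edgeR adjusted p = 6.05e-11, highest over settings 0.00385). The other members of that group, Ccne1 and Ccne2, which encode the E-type cyclins, rose by 2.94 (SE 0.49) and 2.13 (SE 0.61). The call of Ccne2, which held 2 to 20 UMIs per library, was lost by DESeq2 (adjusted p = 0.186) and without WT_Ctrl (0.0742), WT_CVI (0.0768) or IL6_KO_Ctrl (0.0564).

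Of the 8 licensing and helicase genes 7 rose, by smaller amounts than most mitotic members. The helicase subunits ran from 0.61 for Mcm4 and 0.69 for Mcm3 to 1.75 for Mcm5, and Gins2, a subunit of the helicase's GINS partner, rose by 1.84 (SE 0.25). Mcm4 lost its call without WT_Ctrl (adjusted p = 0.197), without WT_CVI (0.158) and by DESeq2, and Mcm7 by DESeq2 (0.0515). Cdc6, with 5 to 13 UMIs per library, stood at -0.24 (SE 0.57, adjusted p = 0.752) and reversed its sign in 3 settings. At the fork Tyms rose by 1.75, Rrm1 by 0.88, Rrm2 by 4.69 and Uhrf1 by 3.07, while Pcna stood at 0.04 (SE 0.14, adjusted p = 0.859).

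**Figure D4:**
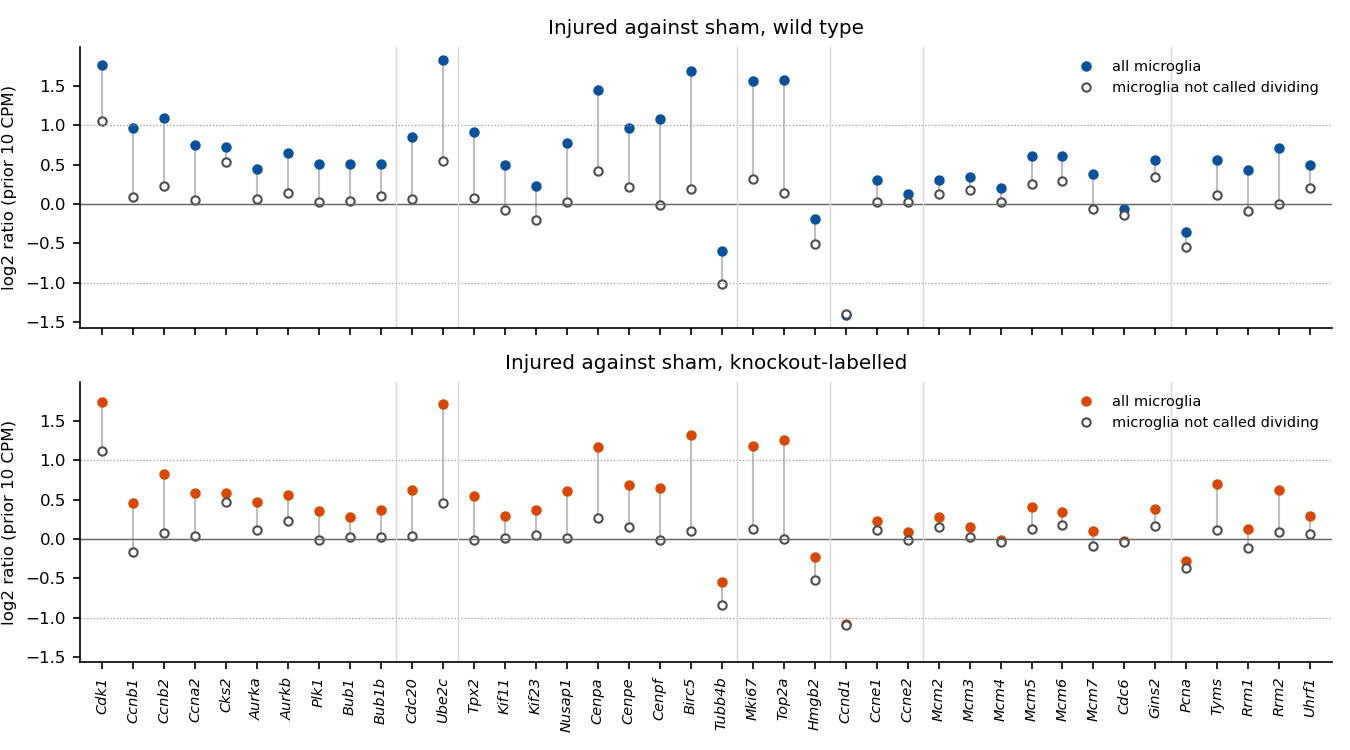
Log2 ratio of injured to sham microglia (prior of 10 CPM) for each member under both labels, with filled points for all microglia and open points for microglia not called dividing. Mki67 moves from 1.56 to 0.32 in the wild-type pair when dividing cells are left out, whereas Ccnd1 stays at -1.41 and -1.40. The prior pulls scarce genes toward 0. Without the prior, Mki67 in those cells was 7.10-fold higher (2.27 to 35.8), from 42 against 3 UMIs.

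The same ratios were taken with dividing cells left out. The remaining cells were chosen for holding few mitotic reference genes, which by itself lowers members that go with those genes. In microglia not called dividing, none was past 2-fold upwards in the wild-type pair, where 6 passed the filter, or in the knockout-labelled pair, where 6 did (backgrounds 2.86% and 2.23%). Cdk1, at log2 ratios of 1.06 and 1.11 on the same prior, is missing from these counts because it fell below 20 CPM once dividing cells were left out. Ccnd1 and Tubb4b were past 2-fold downwards in the wild-type pair (4.84%) and Ccnd1 in the knockout-labelled pair (1.23%). Cdk1 still stood at 15.3 CPM in WT_CVI against 2.14 in WT_Ctrl, 7.17-fold higher (4.25 to 13.0), and at 16.8 CPM in IL6_KO_CVI against 2.38 in IL6_KO_Ctrl, 7.04-fold higher (4.68 to 11.0). Ube2c was 5.52-fold and 7.89-fold higher in these cells. Tubb4b was 2.19-fold lower in the wild-type pair and 1.93-fold lower in the knockout-labelled pair. Ccnd1 was 2.97-fold and 2.32-fold lower, close to its fall over all microglia.

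In the edgeR test on these cells, 18 of the 30 members that could be fitted rose (background 23.5%) and 2, Ccnd1 and Tubb4b, fell (21.2%). Here too, members nearly absent from sham cells were fitted through the injured libraries, so the counts are no test. Cdk1 rose by 3.20 (SE 0.23, adjusted p = 6.40e-42), Ube2c by 3.08 (SE 0.37), Cenpa by 1.57 (SE 0.28) and Cks2 by 0.98 (SE 0.14). These 4 passed in all 13 other settings, with highest adjusted p of 5.86e-06, 0.00111, 0.0239 and 0.000182. Ccnd1 fell by 1.00 (SE 0.14) and Tubb4b by 0.65 (SE 0.14, adjusted p = 1.11e-05), and both passed in all settings too. Aurkb and Cenpe also kept their calls throughout, whereas 12 other called members lost theirs in at least 1 setting, and Ccne1 kept its call in only 6 of 13. Mki67 rose by 3.73 (SE 0.66) and kept its call in 11 of 12 other settings. Top2a stood at 0.81 (SE 0.43, adjusted p = 0.116) and Cenpf at 0.31 (SE 0.33, adjusted p = 0.476), so neither passed. Missing the test in cells chosen this way does not show that their levels stayed the same. DESeq2 called 7 higher in place of 18, and 15 of 26 rose when cells with 3 or 4 reference genes were left out as well. A shallow dividing cell, or one in S phase, can fall short of 5 reference genes, and the part of such cells in these values was not tested.

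Free RNA in the suspension gives UMIs in cells that do not make a gene, so endothelial cells of the same libraries are set beside these levels. Over all cells not called dividing in WT_CVI, Cdk1 stood at 13.8 CPM, against 5.21 CPM (3 UMIs in 81 cells) in endothelial cells. Mki67 stood at 4.59 CPM against 1.74 CPM (1 UMI). In IL6_KO_CVI Cdk1 stood at 15.4 CPM against 4.01 CPM (3 UMIs in 130 cells). Hmgb2 was of similar level in both kinds of cell in WT_CVI, at 106 CPM outside dividing cells and 136 CPM in endothelial cells. The endothelial values of Cdk1 and Mki67 rest on 3 UMIs or fewer and are imprecise. The endothelial cells of WT_CVI also include 1 cell called dividing, and 1 cell held 12 of their 16 UMIs of the concentrated members. The part of free RNA in the levels outside dividing cells was not tested.

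After injury, several members of mitosis stood lower in knockout-labelled than in wild-type microglia. Birc5 was 1.64-fold lower in IL6_KO_CVI (1.41 to 1.91), Mki67 1.62-fold (1.37 to 1.92), Cenpa 1.54-fold (1.33 to 1.78), Top2a 1.42-fold (1.22 to 1.65) and Ube2c 1.22-fold (1.07 to 1.39). The interval for Cdk1, 1.11-fold lower, includes no difference (0.987 to 1.25). Ccnd1 was 1.21-fold higher in IL6_KO_CVI (1.10 to 1.32). Among the 12 members that passed the filter none was past 2-fold in either direction, against 0.0742% of 5388 genes higher and 0.297% lower. Outside the filter Tpx2, at 4.92 against 10.5 CPM, was 2.13-fold lower (1.65 to 2.77), and Cdc6, from 6 against 13 UMIs, 2.89-fold lower (1.03 to 9.28). With 1 mouse per group these ratios carry counting error only, and no test of 1 library against 1 was made.

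The full-depth share of dividing microglia was also lower in IL6_KO_CVI, and the same ratios were therefore taken in microglia not called dividing. There Mki67 was 3.18-fold lower in IL6_KO_CVI (1.79 to 5.87, 18 against 42 UMIs), Birc5 2.17-fold (1.14 to 4.24), Cenpa 1.67-fold (1.24 to 2.25) and Tpx2 5.46-fold (1.76 to 22.4, 4 against 16 UMIs). The interval of Top2a, 1.52-fold lower, includes no difference (0.865 to 2.69). Cdk1 stood 1.09-fold higher in IL6_KO_CVI, and its interval includes no difference too (0.915 to 1.31). Kif11, Cenpf and Aurkb stood 1.92-fold, 1.30-fold and 1.19-fold higher in IL6_KO_CVI in these cells, with intervals that include no difference. The UMIs of Mki67, Birc5 and Tpx2 there were few. The part of dividing cells in the lower levels, including those missed by the call, was not tested.

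Macrophages, gated on Lyz2 and Ms4a7 list genes over microglia genes, numbered 576 in WT_CVI and 78 in IL6_KO_CVI, and only 13 and 2 in the sham libraries. At full depth 45 of the 576 (7.81%) and 1 of the 78 were called dividing. These cells are deep, with medians of 17190.5 and 11038 UMIs, and at 3000 UMIs 16 of 566 were called in WT_CVI (2.83%, 1.62 to 4.55%), beside 3.06% of microglia, and 1 of 76 in IL6_KO_CVI (1.32%, 0.0333 to 7.11%). Within macrophages of WT_CVI, Birc5 held 230 UMIs in dividing cells against 15 in the others and Mki67 142 against 70, ratios of 98.1 and 13.0 in CPM, while Ccnd1 had 1.29. In IL6_KO_CVI 123 of the 147 macrophage UMIs of the 15 concentrated members came from 1 cell.

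Macrophages were tested against microglia of the same injured mice, with the library as a block (edgeR quasi-likelihood test, 12191 genes). Of 40 members 1 was higher in macrophages (background 16.6%) and 6 were lower (17%). Cenpa was higher by a log2 fold change of 0.81 (SE 0.15, adjusted p = 0.000173), with 39.8 CPM in macrophages and 26.1 in microglia of WT_CVI and 24.2 and 17.0 in IL6_KO_CVI. Cks2 was lower, at -1.13 (SE 0.14, adjusted p = 3.80e-07), with 33.7 against 84.9 CPM and 29.8 against 80.8 CPM. Ccnd1 was lower at -0.94 (SE 0.14, adjusted p = 7.81e-06), with 22.1 against 50.4 CPM and 28.0 against 60.8 CPM. These 3 passed in all 7 other settings. Cdk1 (-0.53), Cenpf (-0.61), Tyms (-0.62) and Hmgb2 (-0.40) were also lower, and each of these calls was lost by DESeq2, with adjusted p of 0.273, 0.468, 0.473 and 0.364. By clusters 13 members were lower and by DESeq2 2. Mki67 (0.17, adjusted p = 0.497) and Top2a (-0.34, adjusted p = 0.148) did not pass, but by clusters Top2a was lower, and Mki67 changed sign without a call. Ncapg2, one of the mitotic reference genes that call a cell dividing, was itself higher in macrophages, at 2.40 (SE 0.21), and its part in their full-depth share was not tested.

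Other cell cycle genes in microglia moved in the same comparison across labels. Of 47 fitted genes of an S phase list 31 rose and 2 fell (edgeR adjusted p under 0.05, backgrounds 24.6% and 22.1%), with a median log2 fold change of 1.03. The largest rises were Mcm10 (4.70, SE 0.85), Pclaf (4.27, SE 0.28) and Esco2 (4.05, SE 0.62), and those that fell were the histone chaperone Nasp (-0.76, SE 0.14) and the histone messenger binding protein Slbp (-0.39, SE 0.14). Of the 61 mitotic reference genes 55 could be fitted and 52 of them rose, with the largest rises in Melk (8.17, SE 1.01), Ska1 (7.59, SE 1.12) and Ttk (7.14, SE 1.21). As for the members, genes nearly absent from sham microglia could hardly be called lower, so the counts over these lists are no test. With dividing cells left out, 15 of 40 S phase genes rose and 2 fell (backgrounds 23.5% and 21.2%). No count is given for the mitotic reference genes there, since those cells were selected for holding few of them.

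Of 34 fitted cell cycle regulators 15 rose (background 24.6%) and 3 fell (22.1%), with a median log2 fold change of 0.32, against -0.02 over all genes. The largest rises were Cdc25c, a phosphatase that activates Cdk1 (6.87, SE 1.28), E2f8 (4.12, SE 0.72) and Cdkn2a (3.18, SE 0.50), and the falls were Cdkn1c (-0.61, SE 0.15), Rbl2 (-0.53, SE 0.16) and E2f3 (-0.41, SE 0.15). The kinase inhibitors Cdkn1a, Cdkn2c and Cdkn2d rose by 1.26, 1.62 and 1.13 (SE 0.14, 0.17 and 0.17), and Cdk4, the kinase partner of D-type cyclins, rose by 0.89 (SE 0.14). Cdk6 (-0.15), Cdkn1b (-0.26) and the other D-type cyclins Ccnd2 (0.12) and Ccnd3 (0.03) did not pass, and whether Ccnd1 differed from the other D-type cyclins was not tested. Cdkn1a stood at 153 CPM in WT_Ctrl, 264 in WT_CVI, 115 in IL6_KO_Ctrl and 225 in IL6_KO_CVI, and Cdk4 at 52.9, 85.4, 62.5 and 78.1 CPM. With dividing cells left out Cdkn1a, Cdkn2c, Cdkn2d and Cdk4 still rose, by 1.12, 1.01, 0.73 and 0.81.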

How the data were processed

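The deposited files are matrices of unnormalized UMI counts, 1 for each of 4 libraries of 1 mouse. The authors used Cell Ranger 6.0.1 and the mm10 genome to make these counts, per the submitters' processing notes. Which annotation release they used is not stated there. Barcodes were kept with at least 500 genes, 1000 UMIs and at most 10% mitochondrial UMIs, which left 957, 2883, 1363 and 2550 cells after the highest Scrublet scores were removed as doublets at 0.8% per 1000 barcodes. This removed 35, 113, 29 and 88 cells, 14 of which were dividing in WT_CVI and 2 in IL6_KO_CVI. Classes were gated on marker genes per cell. Leiden clusters (scanpy 1.11.5) without cell cycle genes served as an alternative.

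Counts were summed per class and library. Exact 95% intervals for counting error were computed by the Poisson distribution for CPM, the conditional binomial for ratios and Clopper-Pearson for shares. Those for CPM and ratios treat UMIs of 1 cell as independent counts, and so leave out the spread between cells. A value of 0 was set against a floor of 3 counts. A 2-fold call needed 20 CPM in 1 library, 50 UMIs over the 4 and a prior of 10 CPM. Tests used edgeR 4.0.16 (quasi-likelihood, TMM, filterByExpr, Benjamini-Hochberg adjustment) in R 4.3.3, with DESeq2 1.42.0 as an alternative, and were checked on simulated data. Each library is a different mouse per the series design text. In both main injury fits the spread was pooled wholly over genes. Their p-values therefore do not measure the spread of a given gene between mice.

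The 40 members, the mitotic reference list and the other lists were chosen with earlier results of these data known. All members are described by role. Values in every library are given for those that passed the 20 CPM and 50 UMI filter in microglia, others by range and count or where their dividing ratio is described. Of the other lists the 3 highest and 3 lowest of the genes that passed are named, with 8 regulators named whatever their values. Ccne2, Cdc6, Bub1 and Rrm2 were singled out after their values were seen. Alternatives that leave out shared barcodes, add cells between the gates, take microglia or injured libraries alone, or leave out cells with 3 reference genes were chosen after seeing the data.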

Additional observations from a re-analysis of the deposited data

Results flagged for a closer look

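Outside microglia and macrophages, the 15 members concentrated in dividing cells were higher after injury than in the sham library of the same label, with Poisson intervals that do not overlap under at least 1 label, in 4 further groups of cells. They summed to 199.708 CPM in cells between the microglia and macrophage gates of WT_CVI (431 cells), against 1 UMI in 20 sham cells. The same cells of IL6_KO_CVI stood at 81.781 CPM (143 cells), against 0 UMIs in 12 sham cells. The dendritic gate of WT_CVI held 426.261 CPM (33 cells), of which 95 of 118 UMIs came from 1 cell, against 0 UMIs in 1 sham cell. The neutrophil gate of WT_CVI held 1164.25 CPM, of which 114 of 115 UMIs came from 1 of 33 cells, against 0 UMIs in 13 sham cells. Cells without a class held 593.572 CPM in WT_CVI (51 cells) and 142.202 CPM in IL6_KO_CVI (33 cells, 38 of 42 UMIs from 1 cell), against 26.6 and 15.1 CPM in the sham libraries. Endothelial cells stood at 27.8 CPM in WT_CVI against 9.26 in WT_Ctrl, and at 10.7 in IL6_KO_CVI against 8.67 in IL6_KO_Ctrl, with intervals that overlap in both pairs. These differences rest on single libraries and were not tested, and the Poisson intervals treat UMIs of 1 cell as independent counts.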

How the results depend on the processing

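The share of dividing microglia depended on the cut, on depth and on shared barcodes. In the order WT_Ctrl, WT_CVI, IL6_KO_Ctrl and IL6_KO_CVI it was 10.03, 9.09, 6.28 and 7.77% with at least 3 reference genes, 0.275, 2.46, 0 (limit 0.262%) and 1.55% with at least 10, 2.32, 4.77, 1.30 and 2.85% after thinning to 6000 UMIs, where the intervals within each pair overlap, and 1.97, 4.78, 1.12 and 2.85% at that depth without shared barcodes. Without shared barcodes the full-depth sham shares were 0.454 and 0.551%. Concentrated members numbered 7 with at least 3 reference genes, 29 with at least 10, 28 after thinning to 3000 UMIs, 26 without shared barcodes, 1 in microglia alone, 26 in the injured libraries alone and 28 in their microglia, and broad members 6 with at least 3 genes and 1 with at least 10. Clusters do not enter that count, which takes all cells. Calls past 2-fold in the wild-type pair were 3 higher with cells weighted equally, 0 higher and 2 lower without dividing cells, and 7 higher and 0 lower under median-of-ratios scaling. In the knockout-labelled pair they were 1 higher with cells weighted equally, 6 higher without a filter, 0 higher without dividing cells and 0 lower under median-of-ratios scaling. By edgeR across labels 2 fell with clusters. DESeq2 called 7 higher in cells not called dividing and 2 lower in macrophages, where clusters gave 13. Leaving out each library in turn gave 33 to 35 higher and 1 to 1 lower over all microglia, and 12 to 16 higher and 2 to 2 lower in those not called dividing. Cdc6 reversed to 0.19 with cells between the gates added, 0.67 without WT_Ctrl and 0.43 without IL6_KO_CVI, and leaving out each library gave -1.16 to 0.67. Of the called members' recomputed values by edgeR or DESeq2, 9 of 432 lost the call over all microglia, 29 of 255 in microglia not called dividing and 8 of 49 in macrophages. Of those of members without a call, 1 of 48, 0 of 126 and 7 of 231 gained one. Mki67 in macrophages reversed to -0.31 by clusters. Leave-one-out was not run for macrophages, since 1 library with both classes leaves no residual degree of freedom. No paired analysis was possible for injury or label because each group holds 1 library and the labels give no number that pairs mice. A count of 0 in a library allows up to 3 UMIs at this depth.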

Other observations

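In the border-associated macrophage gate the 15 concentrated members were highest in a sham library. They summed to 499.7 CPM in WT_Ctrl (265 UMIs, 72 cells), against 127.9 CPM in WT_CVI, 14.7 in IL6_KO_Ctrl and 10.4 in IL6_KO_CVI. Of the 265 UMIs 138 came from 1 cell, and 2 of the 72 cells were called dividing.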
